A study of Homo sapiens with 5 samples.

Results

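The 10 genes examined here encode the Rb family and the DREAM/MuvB complexes, out of 19970 protein-coding genes that GENCODE 44 (GRCh38) places on the autosomes and X. They were chosen by name: the pocket protein genes RB1, RBL1 and RBL2, the MuvB core genes LIN9, LIN37, LIN52, LIN54 and RBBP4, and the MuvB partner genes MYBL2 and FOXM1. For each gene, the Rb peaks were taken that overlapped the span from 2000 bp upstream to 500 bp downstream of any of its annotated transcription start sites (TSSs), called the promoter here, or that lay in its gene body. A gene with more annotated starts has more promoter, from 2596 bp at MYBL2 to 16630 bp at RBL2. All 10 genes were found in the annotation, and all 10 had at least 1 Rb promoter peak.

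The study mapped Rb by CUT&RUN, which cuts out the DNA around an antibody-bound protein with a tethered nuclease and sequences the fragments set free, in ZR-75-1, an established oestrogen receptor-positive breast cancer cell line. Parental cells were exposed for 4 days either to DMSO, the solvent control, or to 500 nM abemaciclib, an inhibitor of the cyclin D-dependent kinases CDK4 and CDK6. Each treatment had 2 Rb libraries, made per the study's methods from independent cultures of this 1 line, and 1 IgG2a library from DMSO-treated cells served as the negative control. There were 1438 (replicate 1) and 2582 (replicate 2) listed peaks for Rb in DMSO, 13960 and 12234 after abemaciclib and 589 for IgG2a. The genome-wide mean coverage of the Rb libraries, solved from the lists, was similar, at 0.521 to 0.677 fragments per base.

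As background, hypophosphorylated Rb binds E2F–DP transcription factors at promoters of genes for DNA replication and holds them silent, and phosphorylation by cyclin-dependent kinases releases it. The related pocket proteins p107, from RBL1, and p130, from RBL2, join E2F4 or E2F5, a DP partner and the MuvB core in the DREAM complex, which represses both replication and mitotic genes in quiescent cells. MuvB reaches DNA through LIN54, which reads the cell cycle genes homology region (CHR). In cycling cells MuvB leaves the pocket protein and takes up B-MYB, from MYBL2, and later FOXM1, and then activates mitotic genes. Genes of this network thus encode both the protein profiled here and its relatives.

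The promoter sequence just upstream of the TSS is shown for the 3 genes whose promoter was bound in all 4 Rb libraries and for 1 gene bound with abemaciclib only, since they differed in an E2F-type letter pattern. The E2F pattern was any of TTCCCGC or TTCGCGC or TTGCCGC or TTGGCGC, the CHR pattern TTTGAA, and the pattern of the CCAAT-binding factor NFY was CCAAT, each sought on both strands. Capitals mark these letters, sequences run 5′ to 3′ along the gene in GRCh38, and bases annotated as untranslated were left off these 4 stretches.
RB1, chr13:48303501-48303743, plus strand: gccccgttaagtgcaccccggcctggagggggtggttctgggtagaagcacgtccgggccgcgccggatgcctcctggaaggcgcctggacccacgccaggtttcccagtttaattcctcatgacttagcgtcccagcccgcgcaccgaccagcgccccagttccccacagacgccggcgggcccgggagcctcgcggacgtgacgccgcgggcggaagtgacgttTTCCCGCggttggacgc
RBL1, chr20:37095998-37096247, minus strand: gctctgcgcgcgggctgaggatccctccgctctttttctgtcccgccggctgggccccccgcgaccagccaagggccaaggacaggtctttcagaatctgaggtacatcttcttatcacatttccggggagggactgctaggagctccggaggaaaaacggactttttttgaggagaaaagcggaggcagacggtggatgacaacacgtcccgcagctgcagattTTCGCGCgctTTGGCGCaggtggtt
LIN52, chr14:74084706-74084955, plus strand: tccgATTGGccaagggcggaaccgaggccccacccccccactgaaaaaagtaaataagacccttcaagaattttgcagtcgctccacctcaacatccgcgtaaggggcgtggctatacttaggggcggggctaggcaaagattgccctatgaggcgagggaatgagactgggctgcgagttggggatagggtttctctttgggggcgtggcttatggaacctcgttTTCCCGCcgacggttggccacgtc
LIN37, chr19:35748326-35748575, plus strand: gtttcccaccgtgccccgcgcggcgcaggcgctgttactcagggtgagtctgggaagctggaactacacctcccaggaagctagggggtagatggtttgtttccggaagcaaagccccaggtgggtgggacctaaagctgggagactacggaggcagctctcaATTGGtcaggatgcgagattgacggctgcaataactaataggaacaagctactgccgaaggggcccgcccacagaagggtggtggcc
RB1 and LIN52 each held TTCCCGC, which began at position -24 from the canonical TSS. RBL1 held TTCGCGC at -25 and TTGGCGC at -15, separated by 3 letters. LIN37 held neither an E2F nor a CHR match but an NFY match at -87, read on the opposite strand as ATTGG.

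All 10 promoters carried an Rb peak after abemaciclib, and 4 of them carried none in DMSO. Rb peaks stood at 5 of the 10 promoters in DMSO replicate 1 (RB1, RBL1, LIN52, RBBP4 and FOXM1) and at 4 in DMSO replicate 2 (RB1, RBL1, LIN52 and MYBL2), where 7.86% and 12.4% of all protein-coding genes had a promoter peak. In both abemaciclib replicates all 10 promoters had a peak, against 58.0% and 53.9% of all protein-coding genes. The IgG2a library had no peak at any of the 10 promoters, against 0.0300% of all protein-coding genes, and none of the Rb peaks at these genes overlapped an IgG2a peak. The difference was 5.50 genes between 10.0 ± 0 with abemaciclib and 4.50 ± 0.707 in DMSO (mean ± SD, n = 2 each). The counts did not overlap between treatments, and the exact permutation test, two-sided, gave p = 0.333, the smallest value 2 against 2 libraries can reach.

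**Figure D1:**
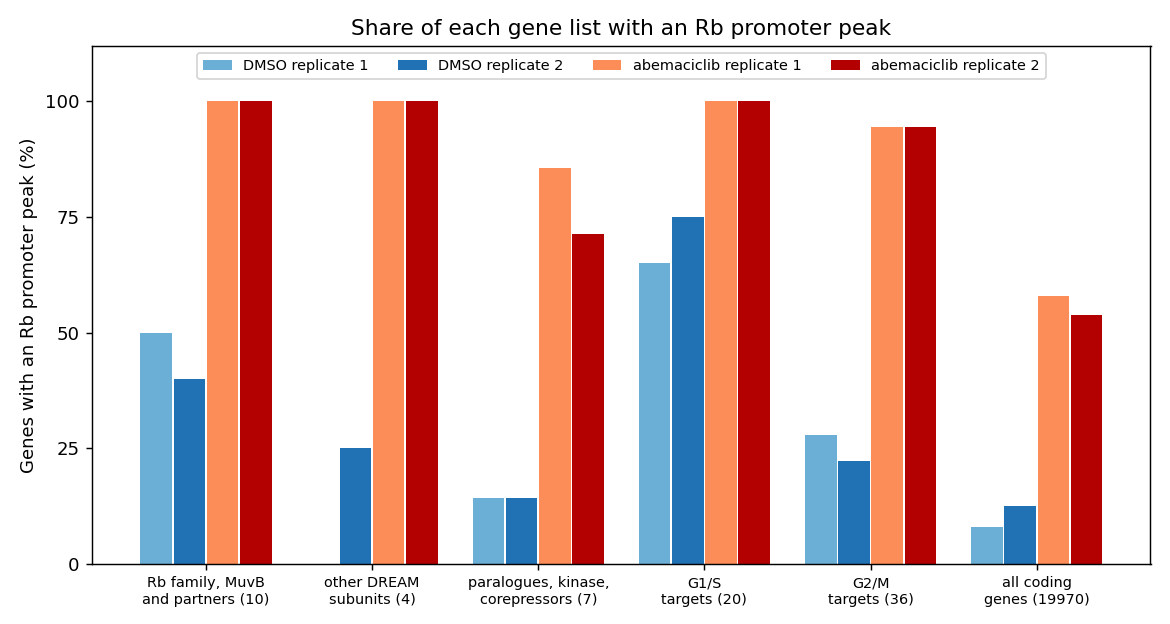
Bars give the percentage of each gene list with an Rb promoter peak in each of the 4 Rb libraries, from 0 to 100%, with the number of genes in each list in brackets. The 10 Rb family, MuvB and partner genes went from 5 and 4 of 10 in DMSO to all 10 with abemaciclib, while all coding genes went from 7.86% and 12.4% to 58.0% and 53.9%.

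These counts depend on how many peaks a list holds. When each Rb list was held to its strongest 1438 peaks by p, 5 and 3 of the 10 genes kept a promoter peak in DMSO and 4 did in each abemaciclib replicate, where 7.86%, 7.67%, 8.59% and 8.56% of all protein-coding genes did. Among those strongest peaks, RBL1 was present in all 4 libraries. LIN9 was present with abemaciclib in both replicates and absent in DMSO, whereas RB1 was present in DMSO in both replicates and absent with abemaciclib. RB1 stood near this limit in DMSO replicate 1, at number 1373, and in abemaciclib replicate 2, at number 1456. It was number 912 in DMSO replicate 2 and 1942 in abemaciclib replicate 1. Rank gives the place in a list, and RB1 coverage itself was higher with abemaciclib, as given below. With q limited to 1e-05 instead, 3 and 3 of the 10 genes had a promoter peak in the DMSO replicates (RBL1, RBBP4 and FOXM1 in replicate 1, and RB1, RBL1 and MYBL2 in replicate 2) and 10 and 9 in the abemaciclib replicates. All protein-coding genes then had shares of 3.87%, 6.55%, 52.3% and 48.5%.

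The 10 genes fell into 3 patterns of occupancy. Promoter regions shared by all 4 Rb libraries stood at 3 genes, RB1, RBL1 and LIN52, against 6.49% of all protein-coding genes. A peak in both abemaciclib libraries and exactly 1 DMSO library stood at 3, RBBP4, MYBL2 and FOXM1, against 7.39%. Promoter regions gained with abemaciclib, with peaks in both abemaciclib libraries and in no DMSO library, stood at 4, RBL2, LIN9, LIN37 and LIN54, which is close to the 40.1% of all protein-coding genes with such a region. Without DMSO replicate 2 the first group grew to 5 genes, with RBBP4 and FOXM1. None of the 10 lost a promoter region, as did 0% of all protein-coding genes.

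**Figure D2:**
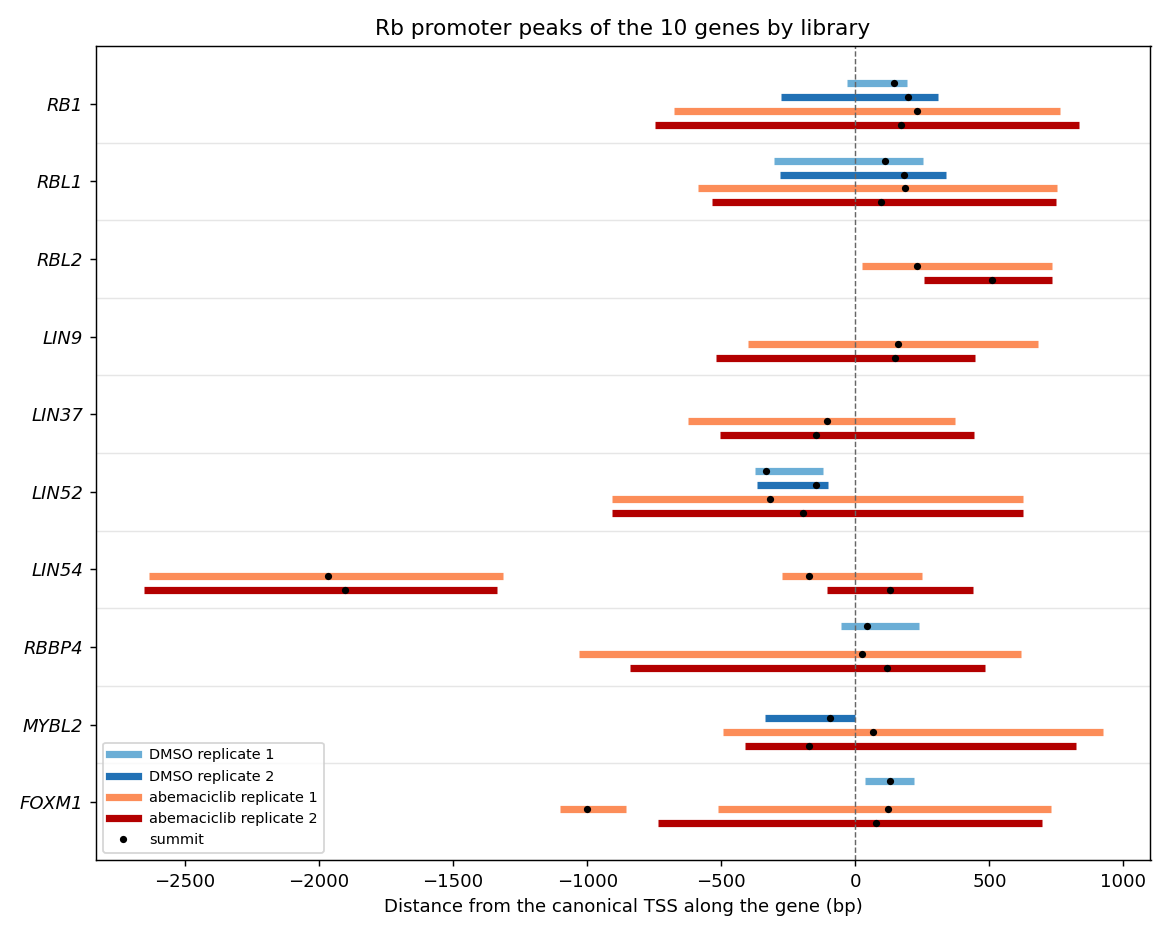
Horizontal bars give the extent of each Rb promoter peak by library, in bp from the gene's canonical TSS (dashed line) with transcription running to the right, and black dots give the summits. DMSO bars, present at 6 genes, are shorter than the abemaciclib bars of the same gene, and the stronger LIN54 peak has its summits at -1902 and -1968 bp.

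Among the pocket protein genes, RBL1 carried the strongest peak of all 10 genes in each of the 4 libraries. At its summit, the pileup (the number of fragments stacked on 1 base, solved from each peak's fold and p) was 22 and 35 in the DMSO replicates and 162 and 143 with abemaciclib, replicate 1 given before replicate 2 here and throughout. Both abemaciclib values lay far above both DMSO values. To compare libraries, each pileup was divided by its library's genome-wide mean coverage, and these multiples were 33.9 and 51.7 in DMSO and 247 and 274 with abemaciclib. By p the RBL1 peak was number 100 of 1438 and 87 of 2582 in the DMSO lists and number 153 of 13960 and 81 of 12234 in the abemaciclib lists. The region (chr20:37095244-37096585) spans the TSS, and the summits lay 95 to 184 bp downstream of it, in the first coding exon; it also covers the start of a lncRNA on the opposite strand, 212 bp away.

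RB1, which encodes the profiled protein itself, was bound in every Rb library, and near the listing limit in DMSO replicate 1. Its summit pileup was 6 and 11 in DMSO and 52 and 46 with abemaciclib, or 9.24, 16.2, 79.3 and 88.3 times the library mean. The 6 fragments of DMSO replicate 1 are the lowest pileup listed in that library over its lowest background, and this peak was number 1373 of 1438, with a −log10 q of 1.40. In DMSO replicate 2 it was number 912 of 2582, and its 16.2 equalled the median of 16.2 over all protein-coding genes with a promoter peak there. The RB1 peak fell out of the replicate 1 list when q was limited to 0.01, so that RB1 left the genes bound in all 4 libraries. The summits fell between 144 and 229 bp downstream of the TSS, in the first exon, and the region (chr13:48303005-48304584) also covers the start of RB1-DT, a lncRNA transcribed the opposite way from 31 bp away.

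RBL2, the p130 gene, was the most weakly bound of the 10 genes with abemaciclib. It had no DMSO peak, and its summit pileup with abemaciclib was 12 in replicate 1 and 7 in replicate 2, or 18.3 and 13.4 times the library mean. Its peak was number 9026 of 13960 and 10278 of 12234, and with q limited to 1e-05 it was listed in replicate 1 and not in replicate 2. In a DMSO list a pileup of 6 would have reached the lowest p listed, so lower coverage at RBL2 in DMSO would not have been seen. Its 2 replicate summits were 279 bp apart, the widest spacing among the 10 genes.

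LIN52, whose product ties MuvB to the pocket protein, was the only MuvB core gene bound in all 4 libraries. Its summit pileup was 9 and 7 in DMSO and 70 and 58 with abemaciclib, or 13.9, 10.3, 107 and 111 times the library mean. The groups did not overlap, and the abemaciclib replicates differed by 1.04 times. All 4 summits lay upstream of the LIN52 TSS, at -334 to -145 bp, and the region (chr14:74084049-74085583) also covers the start of ALDH6A1, a mitochondrial dehydrogenase gene transcribed the opposite way from 464 bp away. The peak therefore cannot be assigned to LIN52 alone.

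The stretch around the LIN52 summit of abemaciclib replicate 1 is shown because it carried more NFY matches than the E2F match that lies nearer the TSS.
LIN52 summit stretch, chr14:74084489-74084788, plus strand: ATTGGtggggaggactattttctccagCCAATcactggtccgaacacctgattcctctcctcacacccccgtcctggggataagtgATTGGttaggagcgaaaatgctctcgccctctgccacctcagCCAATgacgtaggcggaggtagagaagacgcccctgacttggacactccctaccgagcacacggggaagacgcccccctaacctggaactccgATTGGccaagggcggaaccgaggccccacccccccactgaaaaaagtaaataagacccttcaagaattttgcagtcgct
This stretch held 5 NFY matches in either orientation, marked in capitals, and no E2F or CHR match. It includes the ALDH6A1 start, at base 74084492, so it is promoter sequence of both genes. Of the promoter peaks of abemaciclib replicate 1, 26.5% had at least 1 NFY match within 300 bp centred on the summit. The share with as many as 5 was not counted.

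RB1, RBL1 and LIN52 had ratios within the range of other shared promoters. The ratio, abemaciclib over DMSO, was taken between geometric means of the replicate multiples, while the levels beside it are arithmetic means. It was 6.83 for RB1, with levels of 12.7 ± 4.95 in DMSO and 83.8 ± 6.38 with abemaciclib (mean ± SD, n = 2 each). For RBL1 the ratio was 6.22, with levels of 42.8 ± 12.6 and 261 ± 19.5, and for LIN52 it was 9.10, with levels of 12.1 ± 2.49 and 109 ± 3.26. Over the 1031 shared promoter regions with a solved pileup in all 4 libraries the median ratio was 7.37, with a 5th to 95th percentile range of 4.54 to 11.5, and the 3 genes lay inside it. For each gene both abemaciclib values exceeded both DMSO values, and the exact permutation test, two-sided, gave p = 0.333, or 0.333 after Benjamini-Hochberg adjustment over the 3 genes, again the smallest value possible. This separation is not particular to them. Over the 1041 shared promoter regions the 10th percentile with abemaciclib, 85.4 and 82.5, lay above the 90th percentile in DMSO, 35.4 and 41.4.

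Their place among shared promoters differed. Of the 1041 shared promoter regions, ranked by −log10 p in each library, RBL1 stood at percentiles 92.8 and 93.9 in DMSO and 86.1 and 92.5 with abemaciclib. RB1 stood at 2.98 and 37.9 in DMSO and 10.1 and 18.3 with abemaciclib, and LIN52 at 37.8 and 7.78 and at 26.0 and 34.0. RBL1 was thus in the upper part in every library, while the 2 DMSO replicates placed RB1 and LIN52 in opposite order. The differences, abemaciclib minus DMSO, were -4.08 percentile points for RBL1, -6.29 for RB1 and 7.25 for LIN52, with p of 0.333, 1.00 and 1.00 by the exact permutation test, two-sided, and 0.999, 1.00 and 1.00 after Benjamini-Hochberg adjustment over the 3. Without DMSO replicate 2 the RB1 difference became 18.1 and the LIN52 difference -6.40.

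**Figure D3:**
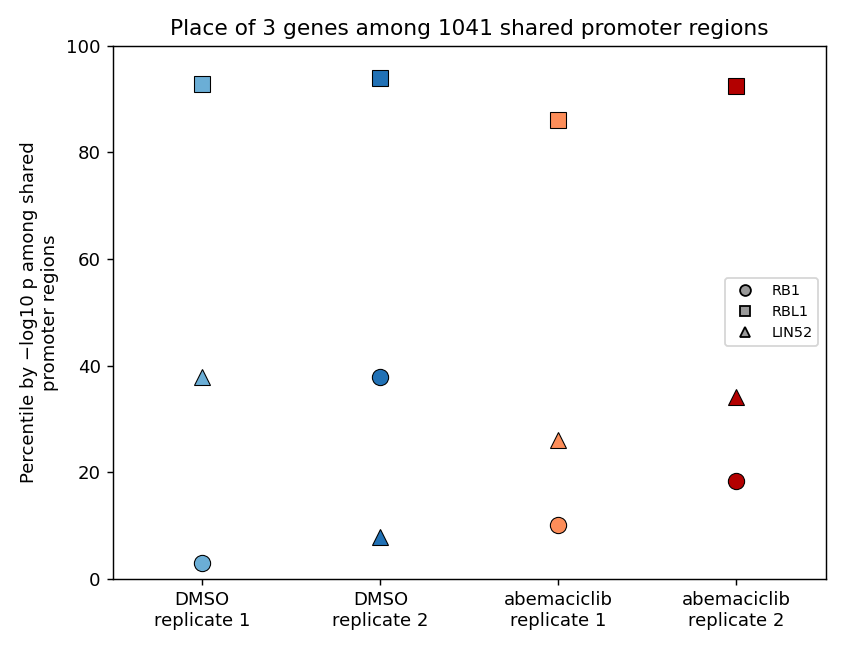
Points give the percentile of the RB1, RBL1 and LIN52 peaks by −log10 p among 1041 shared promoter regions in each of the 4 Rb libraries, on an axis from 0 to 100. RBL1 stays between 86.1 and 93.9, whereas RB1 and LIN52 exchange places between the 2 DMSO libraries.

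RBBP4, which encodes a histone-binding subunit shared by MuvB and several chromatin complexes, had a DMSO peak in replicate 1 only. Its summit pileup was 13 in DMSO replicate 1 and 69 and 47 with abemaciclib, or 20.0, 105 and 90.2 times the library mean. In DMSO replicate 2 a pileup of 6, or 8.86 times the mean, would have reached the lowest p listed over the local background seen with abemaciclib. The abemaciclib values were 5.25 and 4.50 times the DMSO replicate 1 value. The summits lay 24 to 119 bp downstream of the canonical TSS, and the region (chr1:32650177-32651826) also covers the start of ZBTB8OS, 305 bp away on the opposite strand. The peak therefore cannot be assigned to RBBP4 alone.

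FOXM1, a forkhead factor of mitotic genes, showed the same pattern of libraries, with a pileup of 15 in DMSO replicate 1, no peak in DMSO replicate 2, and 76 and 57 with abemaciclib. These were 23.1, 116 and 109 times the library mean, so that the abemaciclib values were 5.01 and 4.73 times the DMSO replicate 1 value. In DMSO replicate 2 a pileup of 10 would have been listed over the local background seen with abemaciclib. Against that level the ratio of the abemaciclib mean is at least 7.63. The FOXM1 region (chr12:2876444-2877908) covers the starts of 2 further coding genes on the opposite strand, RHNO1, a DNA damage response gene 25 bp away, and TULP3, 49 bp away, so its peak cannot be assigned to FOXM1 alone. A further weak peak of pileup 8 had its summit at -1002 bp in abemaciclib replicate 1 only.

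MYBL2, the B-MYB gene, had its DMSO peak in replicate 2 only. The pileup was 12 in DMSO replicate 2 and 40 and 29 with abemaciclib, or 17.7, 61.0 and 55.7 times the library mean, and the abemaciclib values were 3.44 and 3.14 times the DMSO replicate 2 value. These ratios use the 1 DMSO library with a peak. In DMSO replicate 1 a pileup of 8 would have been listed over the local background seen with abemaciclib, and against that level the ratio of the abemaciclib mean is at least 4.73. No other gene starts in the MYBL2 region (chr20:43666622-43668036).

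Letters at the RBBP4 and FOXM1 starts, which include bases annotated as untranslated, are shown because patterns lie against or over one another there.
RBBP4, chr1:32651157-32651186, plus strand: ggctgatgttgGCGCGAAggtgcgcgagtc
FOXM1, chr12:2877144-2877173, minus strand: acgctccgccgGCGCCAAtttcaaacagcg
In RBBP4 the capitals mark an E2F match on the opposite strand, GCGCGAA, beginning at -40 from the canonical TSS, and a further match, TTGGCGC, begins at -43 and overlaps the marked match. In FOXM1 the capitals mark an E2F match on the opposite strand, GCGCCAA, beginning 12 bases after the TSS. It overlaps an NFY match, CCAAT, which begins at base 15, and a CHR match on the opposite strand, TTCAAA, follows at base 20. MYBL2 held none of the 3 patterns in the window at its TSS.

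LIN9, the scaffold of MuvB that binds B-MYB, was listed in no DMSO library. By multiple of the library mean it was second to RBL1 with abemaciclib. Its pileup was 106 in abemaciclib replicate 1 and 91 in replicate 2, or 162 and 175 times the library mean, and the replicates differed by 1.08 times. Among the 7759 protein-coding genes with a promoter peak in both abemaciclib replicates and none in DMSO, only 12, LIN9 included, had a mean multiple as high as its 168, or 0.155% of them, against a median of 34.2. The local background at LIN9 was also raised, at 3.79 times the genome mean in abemaciclib replicate 1, a level that 97.2% of the genes with a promoter peak did not exceed. Over such a background a pileup of 12 or 11 would have reached the lowest p listed in DMSO replicate 1 or 2, so the abemaciclib mean was 9.09 and 10.3 times the level needed for listing. The part of that raised background in the missing DMSO peak was not tested. The multiple also takes no account of that background. By fold, which is taken over the local background, LIN9 stood at 30.7 and 31.2 in the abemaciclib replicates. This was below LIN52 at 42.9 and 38.8 and RBBP4 at 42.3 and 31.6. Its peak was number 1781 and 1230 by fold, against 919 and 680 by p.

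LIN37, which DREAM needs for repression, and LIN54, its DNA-binding subunit, were listed with abemaciclib alone at intermediate strength. The LIN37 pileup was 45 and 38 in replicates 1 and 2, or 68.6 and 72.9 times the library mean, and 7 would have been listed in either DMSO library. At LIN54 the pileup was 36 and 41, or 54.9 and 78.7 times the mean, a difference of 1.43 times between replicates that is the widest of the 10 genes, and 8 would have been listed in DMSO. The summits of that LIN54 peak lie at -1968 and -1902 bp from the canonical TSS, within 162 bp of another annotated LIN54 start. A weaker region at the canonical TSS had pileups of 14 and 12. LIN37 shares its region with a lncRNA on the opposite strand 288 bp away, whereas no other gene starts in the regions of LIN9 and LIN54.

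The stretch at the stronger LIN54 peak and the E2F match nearest the LIN9 summit are shown because E2F matches lay there and not at the canonical TSS.
LIN54, chr4:83012641-83012791, minus strand: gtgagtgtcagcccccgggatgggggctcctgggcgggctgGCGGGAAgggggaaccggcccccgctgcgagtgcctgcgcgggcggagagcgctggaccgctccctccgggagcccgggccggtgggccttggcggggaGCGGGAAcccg
LIN9, chr1:226308943-226308972, minus strand: cccactccggtgTTGCCGCcgcgtcgccgc
The LIN54 stretch held 2 E2F matches, both on the opposite strand as GCGGGAA. In LIN9 the marked match, TTGCCGC, in a stretch that includes bases annotated as untranslated, lies 47 bp from the summit of abemaciclib replicate 1 and 207 bp downstream of the canonical TSS. LIN9 held 2 E2F matches in the 200 bp centred on that summit.

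**Figure D4:**
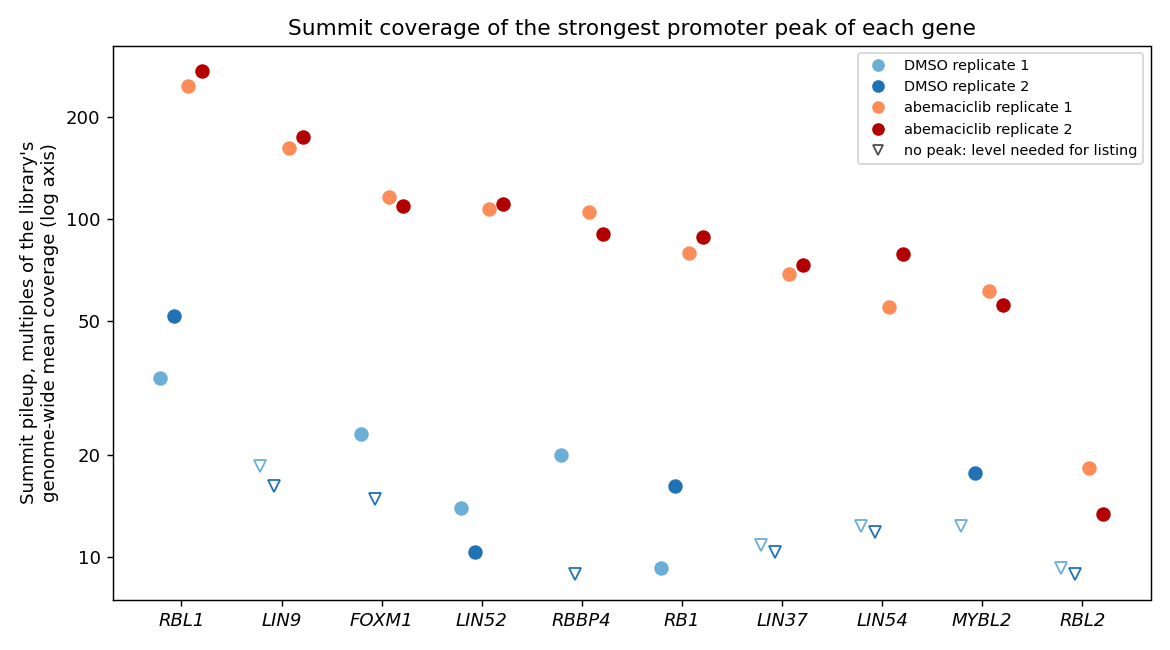
Filled points give, on a log axis, the summit pileup of the strongest promoter peak of each gene as a multiple of its library's genome-wide mean coverage, and open triangles give the multiple a DMSO library without a peak would have needed for listing. Genes are ordered by their abemaciclib mean, from RBL1 at 261 to RBL2 at 15.9, and every filled DMSO point lies below both abemaciclib points of its gene.

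With abemaciclib, the order of mean multiples was RBL1 at 261 ± 19.5, LIN9 at 168 ± 9.25, FOXM1 at 113 ± 4.56, LIN52 at 109 ± 3.26, RBBP4 at 97.7 ± 10.6, RB1 at 83.8 ± 6.38, LIN37 at 70.8 ± 3.07, LIN54 at 66.8 ± 16.8, MYBL2 at 58.3 ± 3.76 and RBL2 at 15.9 ± 3.43 (SD, n = 2 each). The replicate values of neighbours overlapped for FOXM1 and LIN52, for LIN37 and LIN54, and for LIN54 and MYBL2, and did not overlap for the others. With 2 values per gene this does not settle the order: RBBP4 and RB1 had pileups of 47 and 46 in abemaciclib replicate 2. The order also depends on the measure. By fold, FOXM1 at 29.2 and 19.7 stood below RB1 at 32.0 and 30.9. The pocket protein genes thus held both ends of the order. Over the 10 genes the median multiple was 92.2 and 89.3 in abemaciclib replicates 1 and 2, beside 41.2 and 42.2 over all protein-coding genes with a promoter peak. Over the 1041 shared promoter regions it was 154 and 149, and over the 7828 gained promoter regions 33.5 and 30.7. Replicate values of 1 gene differed by 1.18 times in the median over 10501 genes with abemaciclib.

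The strongest promoter peaks were also wider with abemaciclib. At the 10 genes the strongest peak of each promoter spanned 185 to 556 bp in DMSO replicate 1 and 263 to 619 bp in DMSO replicate 2, against 707 to 1650 bp and 475 to 1580 bp in abemaciclib replicates 1 and 2. Weaker further peaks with abemaciclib were narrower, at 248 bp for FOXM1 and 522 and 546 bp for LIN54. Over all protein-coding genes with a promoter peak the median width was 286 and 276 bp in DMSO and 926 and 863 bp with abemaciclib, the same direction. Where 2 peaks counted as the same only if each covered 50% of the other, no gene kept a region shared by all 4 libraries and all 10 counted as gained.

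Outside promoters, a gained region lay within the annotated span of 1 of the 10 genes, RB1, against 4.67% of all protein-coding genes. This region (chr13:48532797-48533087) had pileups of 19 and 16 in abemaciclib replicates 1 and 2. It lies 229134 and 229215 bp from the RB1 TSS at its summits, beyond the end of the canonical RB1 transcript and in an intron of a longer one, and it overlaps the promoters of RCBTB2 and of 2 lncRNAs. No other gene of the 10 had an Rb peak in its body outside promoters in any of the 4 libraries.

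The letter patterns found at the TSS of the 10 genes depended on the form of the pattern. In the 300 bp from 250 bases before the canonical TSS, an E2F match was found at RB1, RBL1, LIN52, RBBP4 and FOXM1, which is 5 of the 6 genes with a peak in at least 1 DMSO library (13.9% of all protein-coding genes), and at none of the 4 gained genes. With the leading T of the pattern dropped, a match stood at all 6 genes with a DMSO peak and at 2 of the 4 gained genes, LIN9 and LIN54, against 61.4% of all protein-coding genes. The share was 83.9% of the 2757 genes bound in both abemaciclib libraries and 1 or 2 DMSO libraries. It was 75.9% of the 7759 bound in both abemaciclib libraries and no DMSO library. Both E2F matches of LIN9 near its summit lay downstream of this window. Over all protein-coding genes 17.1% had an E2F match in this window. The share was 36.9% of the 1281 genes with a promoter peak in all 4 libraries, 28.7% of the 1476 bound in 1 DMSO library beside both abemaciclib libraries, 20.9% of the 7759 without a DMSO peak, and 8.43% of the 8133 with no promoter peak in any Rb library. A CHR match was found at RBL2, LIN9 and LIN54, which is 3 of the 4 gained genes, and at FOXM1, against 11.5% of all protein-coding genes. Over all genes the CHR share was 8.12%, 7.72% and 8.18% in the 3 bound classes and 16.4% in the unbound class. The GC content of these windows was not compared between classes.

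These matches describe letters and no binding factor, and they depend on the window. Within 100 bp of the summits of abemaciclib replicate 1, E2F matches were found at LIN9, LIN54 and RBBP4 (17.3% of promoter peaks), CHR matches at none of the 10 (3.82%) and NFY matches at LIN37, LIN52 and RBBP4 (18.6%). The E2F split seen at the TSS was thus not kept at these summits. LIN9 and LIN54 are gained genes, whereas RB1, RBL1 and LIN52, bound in all 4 libraries, held no E2F match there. GC content of these 200-bp windows ran from 56.5% at LIN37 to 78.0% at LIN54, MYBL2 and FOXM1, around a median of 69.0% over all promoter peaks of that library.

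**Figure D5:**
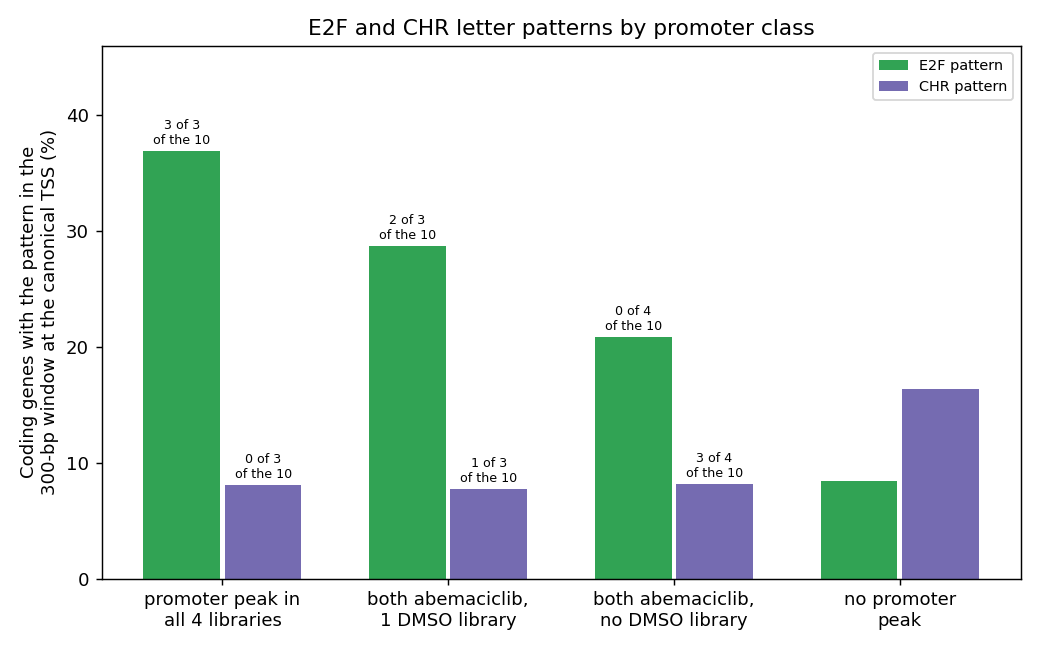
Bars give the percentage of protein-coding genes with an E2F or CHR match in the 300-bp window at the canonical TSS, by the Rb libraries in which the promoter had a peak, and the labels above them count the 10 genes. The E2F share falls from 36.9% to 8.43% across the classes, and the 5 genes of the 10 with a match lie in the first 2 classes. In windows centred on the summits of abemaciclib replicate 1 this split of the 10 genes was not kept.

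Of the remaining 4 DREAM subunit genes, 1 had a DMSO peak (beside 13.9% of all protein-coding genes). E2F4, E2F5, TFDP1 and TFDP2 had promoter peaks in both abemaciclib libraries, against 52.7% of all protein-coding genes, and only TFDP1 had 1 in DMSO, with a multiple of 25.1 in replicate 2. E2F4, the main DREAM E2F, was weakly bound with abemaciclib, at 22.9 and 17.3 times the library mean. Its DP partner TFDP1 stood at 73.2 and 61.4.

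Among 7 paralogue, kinase and corepressor genes, 5 had a promoter peak in both abemaciclib libraries (MYB, MYBL1, RBBP7, DYRK1A and HDAC2), or 71.4% beside 52.7% of all protein-coding genes, HDAC1 had 1 in replicate 1 only, and SIN3B had none. MYBL1, a paralogue of MYBL2, was bound in all 4 libraries, like the 6.49% of all protein-coding genes with a shared region, at 21.6 and 23.6 times the library mean in DMSO and 233 and 242 with abemaciclib, next to RBL1 in strength. DYRK1A, the kinase that promotes DREAM assembly, had no DMSO peak and stood at 70.1 and 51.8. RBBP7, the paralogue of RBBP4, stood at 80.8 and 78.7 with no DMSO peak.

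Target genes of the network were bound as follows. Of 20 G1/S genes, which encode replication factors and their regulators, 20 had a promoter peak in both abemaciclib libraries, against 52.7% of all protein-coding genes, and 13 had a region shared by all 4, against 6.49%. Of 36 genes listed as G2/M targets, 34 had a promoter peak in both abemaciclib libraries (94.4%, beside the same 52.7%). Shared regions stood at 5 of them (13.9%, beside 6.49%) and gained regions at 22 (61.1%, beside 40.1%). The 4 G2/M genes ranked highest with abemaciclib were NUSAP1 at 291 and 250 times the library mean, PLK4 at 189 and 175, CKS1B at 157 and 142 and TOP2A at 130 and 115. By this multiple, only RBL1 and LIN9 among the 10 genes reached the level of CKS1B in both replicates. By fold over the local background, CKS1B stood at 41.7 and 37.6. RBL1 and LIN52 exceeded that in both replicates, and LIN9, at 30.7 and 31.2, in neither.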

How the data were processed

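Peak lists of 5 libraries were analysed, 2 Rb libraries per treatment and 1 IgG2a library, grouped and numbered as their titles state. For each library the authors aligned BBDuk-trimmed read pairs to hg38 with Bowtie2 2.3.4.1, retained duplicates, and ran MACS2 2.2.7.1 with matched IgG as control and a q-value limit of 0.05. Which IgG library served for the abemaciclib calls is not given in the sources used here, and the local backgrounds and listing levels rest on that control. The deposited lists give a fold, the ratio of pileup plus 1 to local background plus 1 at the summit, and −log10 values of p (Poisson) and q, all of which grow with depth. Whole-number pileups and local backgrounds that satisfied both values within 0.001 were solved here for 97.5% to 99.8% of peaks. The commonest lowest background was taken as the genome-wide mean coverage, which assumes the caller's usual genome size, and the listing levels in DMSO assume the local background seen with abemaciclib. Peaks sharing at least 1 bp were merged. Promoters came from GENCODE 44, and sequences were read from the GRCh38 reference. Exact permutation tests over libraries were two-sided. The scripts, in Python 3.11.15, were tested on simulated data. The text names the 10 genes, genes that start in their regions, the listed pathway genes and the 4 best-ranked G2/M genes. The 10 genes and the lists were chosen with earlier results of these data known, and the windows at the canonical TSS, the common floor of p and the coverage multiples were added after the data were seen. Same-numbered libraries did not deviate together (correlation -0.080 over 1031 shared regions). Alternatives covered thresholds, list sizes, promoter spans, overlap, patterns and left-out libraries.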

Additional observations from a re-analysis of the deposited data

How the results depend on the processing

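Of 92 values recomputed under alternatives for 12 results, 72 kept their direction or, for counts, stayed within 1.5 times. The difference in promoter peaks, 5.50 genes, stayed at 5 to 6 when a library was left out and became 0 at equal list sizes. With same-numbered libraries as a replicate block it was again 5.50, with p = 0.5 by exact sign flips, the smallest value 2 pairs allow, and the block changed no call. Genes with a region shared by all 4 libraries numbered 3, but 2 with q limited to 0.01, 1 with q limited to 1e-05, 1 at equal list sizes and 0 at 50% reciprocal overlap. That count ran from 3 to 5 without a library, the 5 without DMSO replicate 2, which adds RBBP4 and FOXM1. Genes with a gained promoter region numbered 4, but 1 at equal list sizes and 10 at 50% reciprocal overlap, and ran from 4 to 6 without a library, the 6 without DMSO replicate 1, again adding RBBP4 and FOXM1. The gained region in the body of RB1 was lost at equal list sizes (0 genes). Leaving out a library moved the percentile difference of RB1 from -22.5 to 18.1 and of LIN52 from -6.40 to 39.4, so neither has a direction of its own. That of RBL1 stayed below 0, though it shrank to -0.865 without abemaciclib replicate 1. Both RBL1 percentiles with abemaciclib lay below both in DMSO, so leaving out 1 library could hardly reverse the sign. At summits of abemaciclib replicate 1, E2F matches in 3 genes became 5 in 300-bp windows, 8 with the leading T dropped and 1 with a further T. They became 5 at the canonical TSS. In DMSO fewer genes had a summit to search, and E2F matches stood at 1 of 5 in replicate 1 and 0 of 4 in replicate 2. CHR matches, 0 at summits of abemaciclib replicate 1, became 2 in 300-bp windows, 1 at summits of abemaciclib replicate 2 and 4 at the canonical TSS. NFY matches, 3 at summits of abemaciclib replicate 1, became 0 of 4 at summits of DMSO replicate 2. A common floor of p, IgG2a-overlapping peaks left out, narrower promoters, coding transcripts only and the summit rule changed none of the counts of promoter peaks, shared regions and gained promoter regions. The causes of these changes were not tested, beyond the fewer peaks that shorter lists hold. With 2 libraries per treatment the exact permutation test cannot pass a threshold of 0.05, and coverage below the listing level is not seen.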
